A study of Mus musculus with 12 samples.

Results

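The change of the T cell receptor alpha (Tcra) repertoire between 24 h and 48 h after a pulse of tamoxifen was followed in double-positive (DP) thymocytes of wild-type mice. The members are the 4 libraries titled WT at 24 h (2) and WT at 48 h (2), chosen by their titles from 12 libraries in the series. All carried the genotype given as homozygous WT with TcrdCreER and Rosa26ZsG/+, on C57BL/6J with TcrdCreER of strain 129 at the Tcra-Tcrd loci. The strain field of the same labels gives the reporter as Rosa26ZsG/ZsG, so its dose is not settled. The mice were 4 to 6 weeks old and received 1 mg tamoxifen intraperitoneally 24 h or 48 h before they were killed. Thymocytes positive for ZsGreen, negative for CD3e and positive for both CD4 and CD8 were sorted, and Tcra transcripts were amplified from total RNA by template-switch RACE (amplification from the 5' end of the transcript) with a primer in Trac. The matching 4 libraries of mice homozygous for DPASEKO (KO), which carry the same Cre and reporter alleles and had the same tamoxifen, lend their spread to the tests and are compared once.

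TcrdCreER places a tamoxifen-activated Cre recombinase at Tcrd, and cells in which it acts turn on ZsGreen, so the sorted cells are those marked since the injection, or their progeny. Tcrd lies inside Tcra and is removed when Tcra rearranges, and the measured locus itself carries the strain 129 allele. Tcra is assembled by joining 1 of many Trav (V) segments to 1 of many Traj (J) segments. In DP thymocytes an allele can rearrange again and again, each time joining a Trav farther upstream to a Traj farther downstream and deleting what lies between. The TEA promoter, upstream of Traj58, and the Traj49 promoter open the 5' end of the Traj array to the first joins. The design asks how far along both arrays the joins lie in a cohort of cells sampled at 2 times.

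On GRCm38, the 43 Traj segments listed in the tables span chr14:54157280-54217901, or 60.6 kb on the plus strand, from Traj58 at the 5' end to Traj2 at the 3' end. The coding sequences of 7 of them follow, from GENCODE M21 transcripts, because they mark the ends of the array, the most used segments at each time and the largest changes in both directions. Capitals mark the F-G-X-G motif, which anchors the J region in the folded receptor chain.
Traj58, chr14:54157280-54157342: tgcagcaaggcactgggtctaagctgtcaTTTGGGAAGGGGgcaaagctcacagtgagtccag
Traj52, chr14:54165316-54165381: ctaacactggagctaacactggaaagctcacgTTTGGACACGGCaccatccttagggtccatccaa
Traj49, chr14:54168686-54168747: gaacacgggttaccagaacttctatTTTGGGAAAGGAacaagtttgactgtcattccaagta
Traj31, chr14:54187895-54187951: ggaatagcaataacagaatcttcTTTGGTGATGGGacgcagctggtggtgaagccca
Traj11, chr14:54207139-54207197: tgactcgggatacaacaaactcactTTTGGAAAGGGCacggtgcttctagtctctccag
Traj9, chr14:54209393-54209450: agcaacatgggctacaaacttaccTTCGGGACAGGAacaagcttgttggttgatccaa
Traj2, chr14:54217836-54217901: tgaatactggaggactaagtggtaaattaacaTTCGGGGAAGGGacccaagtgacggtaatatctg
The motif was found on the coding strand, in the reading frame that runs on into Trac, in 39 of the 43 segments (90.7%), and it was not found in Traj44, Traj38, Traj33 and Traj7. The segments are 57 to 66 bases long.

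In each deposited table the entry for a Trav and a Traj is the fraction of the repertoire with that join. Of 85 Trav segments found in at least 1 of the 12 tables, 81 stand in all 4 used here, which with 43 Traj makes 3483 pairs, and each table was rescaled so that these pairs sum to 100%. A transcript holds 1 Trav and 1 Traj, so these shares are compared between segments without division by length. Depth is unknown, and whether reads, molecules or clonotypes were counted is not given in the sources used here. Both replicate 2 tables stand apart: their deposited fractions summed to 1.977 and 1.985, against 0.9962 and 0.9982 in the replicate 1 tables. Their smallest share above 0 was 0.00402% at 24 h and 0.0095% at 48 h, against 0.000858% and 0.000346%. In them 42.9% and 45.5% of pairs stood at 0, against 7.9% and 1.23%. Values are therefore given for each library, in the order 24 h replicate 1, 24 h replicate 2, 48 h replicate 1 and 48 h replicate 2. The tables hold Tcra segments only, so CD4, CD8, CD3e and ZsGreen, by which the cells were sorted, cannot be checked in them.

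Between 24 h and 48 h the Traj repertoire moved from the 5' end of the array towards its 3' end. The usage-weighted mean Traj number was 41.7 and 43 in the early and 31.9 and 33.7 in the late libraries, so it was lower by 9.87 segment numbers in replicate 1 and by 9.32 in replicate 2. Added up from the 5' end, usage reached 50% at Traj43 and Traj45 at 24 h and at Traj32 and Traj34 at 48 h. The most used segment was Traj49 in both 24 h libraries (6.46% and 7.91%) and Traj31 in both 48 h libraries (4.96% and 5.37%). Usage was also spread over more segments, since 10 and 9 Traj segments were needed for 50% of the repertoire at 24 h and 16 and 14 at 48 h. The least used segment was Traj11 at 24 h and Traj5 at 48 h, and the ratio of the most to the least used segment was 51.5 and 73.5 at 24 h and 6.28 and 9.84 at 48 h. In these bulk libraries, fewer cells that use a segment and less Tcra RNA per such cell cannot be told apart. With 2 libraries against 2, an exact two-sided permutation test of such a value cannot go below p = 0.333, so these are descriptions.

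**Figure D1:**
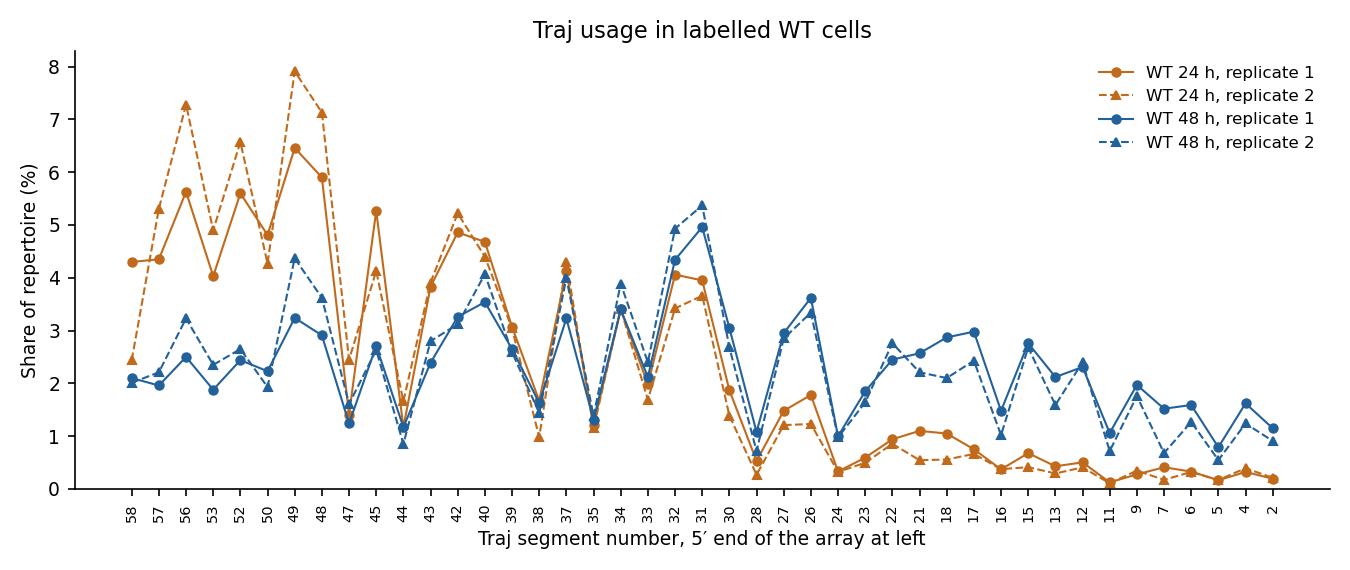
Share of the repertoire (%, vertical axis) held by each of the 43 Traj segments, ordered from the 5' end of the array at left, with 1 line per WT library. The 24 h lines are highest at Traj49 (6.46% and 7.91%), and from Traj30 to the 3' end both 48 h lines lie above both 24 h lines.

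By limma, 21 of the 43 Traj segments rose (48.8%) and 10 fell (23.3%) at an adjusted p under 0.05, which is 72.1% in either direction. The 12 others were Traj58, Traj47, Traj44 and the 9 from Traj40 to Traj31. Before adjustment 33 had a p under 0.05 (76.7%). With the replicate number as a block, 22 rose (51.2%) and 11 fell (25.6%), in all 76.7%. The groups did not overlap for 25 higher (58.1%) and 14 lower (32.6%) segments. The fall and the rise were ordered along the array. The log2 change had a Spearman's rho of 0.966 with distance from Traj58 across the 43 segments, which share libraries and are no independent replicates, and a slope of 0.71 per 10 kb. Shares sum to 100% in every library, so the dividing point depends on the scale. With each library centred on the mean log2 share of its segments, the median change over all 43 moved from 0.44 to -0.21, and 18 rose and 18 fell.

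**Figure D2:**
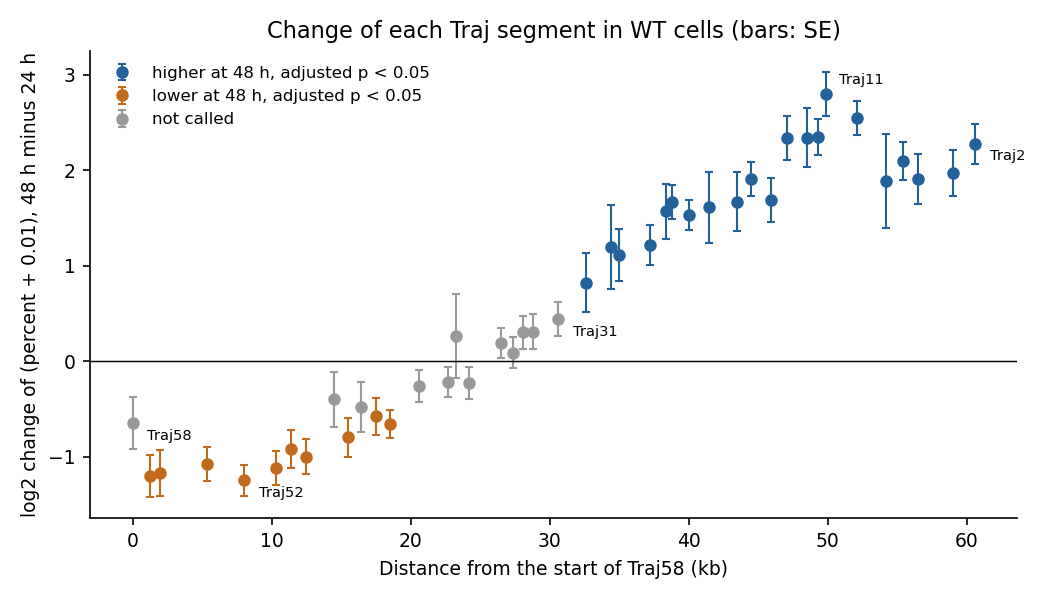
Change of each Traj segment from 24 h to 48 h in WT cells, as log2 of (percent + 0.01) with bars of 1 SE, against its distance in kb from the start of Traj58. Segments that passed the test are blue (21 higher) or orange (10 lower). The values go from -1.25 at Traj52 to 2.80 at Traj11.

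At the 5' end, the 4 segments next to the TEA promoter (Traj58, Traj57, Traj56 and Traj53) together held 18.3% and 19.9% at 24 h and 8.44% and 9.81% at 48 h. Of these, 3 fell and 1 was not called, with a median log2 change of -1.12. Traj57 held 4.35% and 5.31% at 24 h and 1.96% and 2.21% at 48 h. Both 48 h libraries lay below both 24 h libraries, and its log2 change was -1.20 (limma, SE 0.22, adjusted p = 0.00127). Traj56, among the 3 most used segments at 24 h, held 5.63% and 7.28% and then 2.5% and 3.23%, with a log2 change of -1.17. Traj53 held 4.03% and 4.9% and then 1.88% and 2.35%, with a change of -1.08. Traj58, the most 5' segment, behaved less evenly in replicate 1 and replicate 2. It held 4.3% and 2.44% at 24 h and 2.1% and 2.01% at 48 h, with a log2 change of -0.65 (SE 0.27) and an adjusted p of 0.0563 by limma, and it passed with the replicate block (adjusted p = 0.00896, limma). Without 24 h replicate 1 the change was -0.25 (adjusted p = 0.359, limma), and without 24 h replicate 2 it was -1.06 (adjusted p = 0.00564, limma).

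The 6 segments of the window of the Traj49 promoter, Traj52 to Traj45, held the largest block of the 24 h repertoire, 29.5% and 32.5%, and 14.8% and 16.8% at 48 h. Of the 6, 5 fell and 1 (Traj47) was not called, with a median of -0.96. Traj52, the segment with the largest fall of all 43, held 5.6% and 6.57% at 24 h and 2.44% and 2.65% at 48 h. Its log2 change was -1.25 (SE 0.16, adjusted p = 0.000218, limma), and the 2 times did not overlap. Traj49 itself held 6.46% and 7.91% and then 3.24% and 4.37%, a change of -0.92 (SE 0.20, adjusted p = 0.00374, limma). It was the third most used segment in the 48 h replicate 2 library in spite of that fall. Traj48 fell from 5.9% and 7.13% to 2.91% and 3.62% (adjusted p = 0.00127, limma). Traj50 changed by -1.12 and Traj45 by -0.80 on the log2 scale. Traj47 was at 1.41% and 2.45% and then 1.24% and 1.61%, so its groups overlapped (log2 change -0.40, adjusted p = 0.226, limma).

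In the middle of the array the median changes without centring were smaller than in the other blocks. Of the 5 segments from Traj44 to Traj39, 2 fell (Traj43 and Traj42, with log2 changes of -0.58 and -0.66) and 3 were not called. Their joint share went from 17.6% and 18.2% to 13% and 13.4%. On the centred scale all 5 fell, with a median of -1.13 against -0.48 without centring. None of the 7 segments from Traj38 to Traj31 passed the test, although the most used segments at 48 h lie here. Traj31 held 3.95% and 3.66% at 24 h and 4.96% and 5.37% at 48 h. Both 48 h values were higher, with a log2 change of 0.44 (SE 0.18, adjusted p = 0.053 by limma, 0.0372 with the replicate block). Traj33, the segment of the MAIT cell chain, held 1.98% and 1.69% and then 2.12% and 2.4% (log2 change 0.30, adjusted p = 0.145, limma, 0.19 without 24 h replicate 2 and -0.35 on the centred scale). The block from Traj38 to Traj31 held 20.4% and 18.6% at 24 h and 21% and 23.4% at 48 h, which is 0.587 points more in replicate 1 and 4.81 in replicate 2. On the centred scale 3 of its 7 members fell and the median was -0.40, against 0.26 without centring.

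From Traj30 to the 3' end, all 21 segments passed the test and rose, 7 of 7 in each of 3 blocks. On the centred scale this held for the 14 from Traj21 to Traj2 and for 4 of the 7 from Traj30 to Traj22. The median log2 changes were 1.22 for Traj30 to Traj22, 1.91 for Traj21 to Traj12 and 2.10 for Traj11 to Traj2. The joint shares went from 7.53% and 5.78% to 16% and 15% in the first of these blocks. They went from 4.88% and 3.26% to 17.1% and 14.4% in the second, and from 1.82% and 1.72% to 9.7% and 7.13% in the third. The block from Traj11 to Traj2 was the smallest of the 7 at 24 h, and at 48 h it lay above Traj58 to Traj53 in replicate 1 and below it in replicate 2.

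Traj11, printed above, showed the largest change of all. It held 0.125% and 0.108% at 24 h, the lowest of any segment, and 1.06% and 0.718% at 48 h. The log2 change was 2.80 (SE 0.23, adjusted p = 3.3e-05, limma). Traj9 held 0.276% and 0.347% and then 1.97% and 1.76%, a change of 2.55 (SE 0.18, adjusted p = 2.8e-05, limma). The times were far apart for both segments, with every 48 h value above every 24 h value. Traj2, the last segment of the array, went from 0.194% and 0.211% to 1.15% and 0.91%, a change of 2.28 (SE 0.21, adjusted p = 4.5e-05, limma). Traj12 changed by 2.35, Traj13 by 2.34, Traj15 by 2.34, Traj6 by 2.10 and Traj4 by 1.97. Change did not grow all the way to the 3' end: Traj7, Traj6, Traj5, Traj4 and Traj2 had values of 1.89 to 2.28, under those of Traj11 and Traj9, and these differences between segments were not tested. Traj18, the segment of the invariant chain of NKT cells, held 1.05% and 0.557% at 24 h and then 2.87% and 2.1%, a change of 1.67 (SE 0.31, adjusted p = 0.00146, limma).

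On the Trav side, the share of the segments nearest the Traj array was lower at 48 h and that of the segments farther upstream was higher. Trav segments were ranked along chromosome 14 from Trav1, rank 1 and farthest from the Traj array, to Trav21-dv12, rank 81. At 24 h the mean rank was 53.5 and 55.8, and at 48 h it was 43.3 and 47.9. The proximal zone (27 segments, Trav13-1 to Trav21-dv12) held 58.1% and 65.1% at 24 h and then 36.6% and 49.2%. The central zone (26 segments) held 26.1% and 20.5% and then 35.7% and 30.8%. The distal zone (28 segments, Trav1 to Trav12d-3) held 15.8% and 14.3% and then 27.7% and 20%. In each zone both 48 h libraries lay on 1 side of both 24 h libraries. In replicate 2, Trav15d-2-dv6d-2 alone gave 5.62 of the 10.3 points gained by the central zone. In the proximal zone, Trav15-2-dv6-2 gained 8.79 points in replicate 2, while the zone changed by -15.9. Without 48 h replicate 1, the distal change was 4.89 points in place of 8.75 and the proximal change -12.4 in place of -18.7.

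Trav usage also differed between replicate numbers. The Trav15 rows held 2.38% and 12.2% at 24 h and 2.25% and 26.7% at 48 h. Most of this was Trav15-2-dv6-2, at 1.08%, 9.81%, 0.557% and 18.6%, and its copy Trav15d-2-dv6d-2, at 0.193%, 2.07%, 0.341% and 7.69%. The reference transcripts of these 2 are identical at 364 of 370 aligned bases (98.4%), so the assignment between them is uncertain. Both stood high in replicate 2 at both times, and Trav15-2-dv6-2 was the most used Trav in the 48 h replicate 2 library. The Bray-Curtis distance of Trav usage (0 for identical, 1 for disjoint) between the replicates of 1 time was 0.326 at 24 h and 0.389 at 48 h, above the 0.225 and 0.28 between the times within a replicate number. For Traj usage the order was the opposite, with 0.0948 and 0.0785 within a time and 0.259 to 0.355 between times. The part of these replicate differences in the Trav results was not tested beyond the fits with and without the replicate number and without the Trav15 rows.

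Without the replicate number in the fit, limma called 0 of 81 Trav segments in either direction (0%), with 8 at an unadjusted p under 0.05 (9.88%). With the replicate number as a block, 27 rose (33.3%) and 13 fell (16%), in all 49.4%. Without the Trav15 rows and without the block, 1 was called, Trav1, and a fit to 12 libraries and the centred scale also called 1 each, again Trav1. With the block, 15 of the 28 distal and 12 of the 26 central segments rose and none fell, with medians of 0.83 and 0.74 beside 0.27 over all 81. Of the 27 proximal segments, 13 fell and none rose, with a median of -0.76. Groups did not overlap for 16 higher (19.8%) and 13 lower (16%) segments. These lay in the distal (10 higher) and central zone (6 higher and 1 lower) and in the proximal zone (12 lower). Random order of 2 and 2 libraries separates the groups, higher or lower, with a probability of 0.333. The count over all 81 was not far above that.

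**Figure D3:**
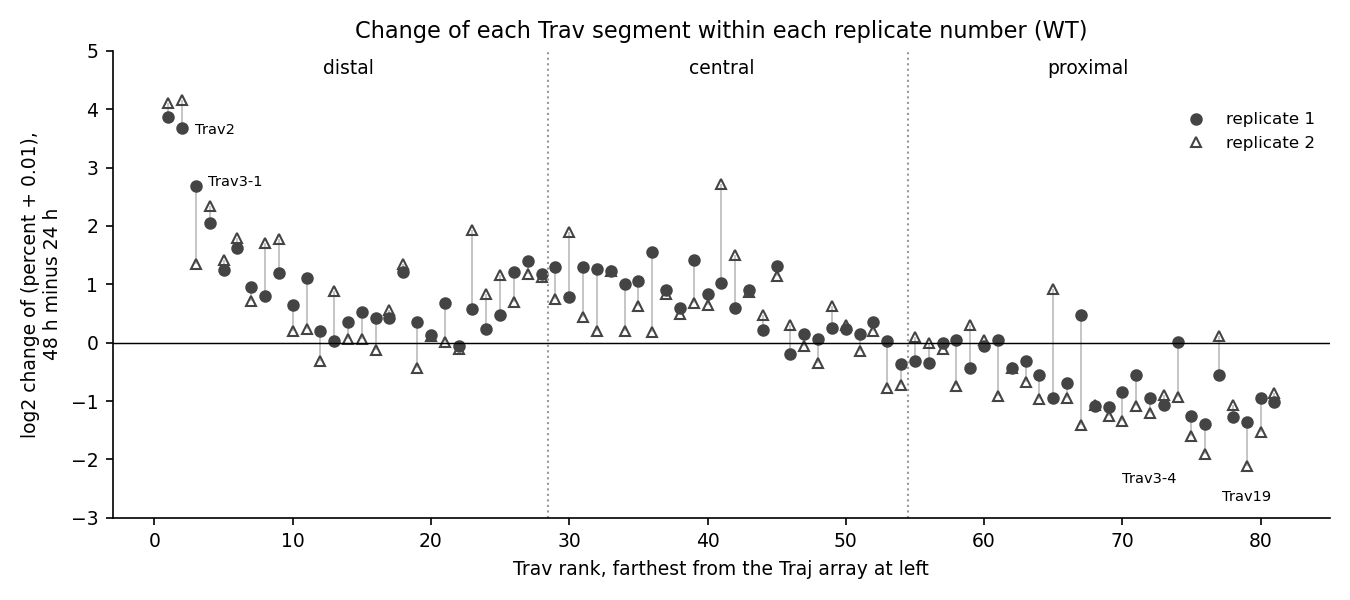
Change of each of the 81 Trav segments from 24 h to 48 h in WT cells, as log2 of (percent + 0.01), for replicate 1 (filled circles) and replicate 2 (open triangles), against rank along the chromosome with the farthest from the Traj array at left. Trav1 and Trav2 are highest in both replicates, at 3.68 to 4.16, and most proximal segments lie below 0.

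The largest log2 changes of any Trav lay at the far end of the array. Trav1 (chr14:52427928-52428876), the most distal segment and the V segment of the MAIT cell chain, held 0.0798% and 0.0208% at 24 h and then 1.3% and 0.517%. The log2 change was 3.98 (SE 0.75, adjusted p = 0.132 by limma, 3.83e-05 with the block). Trav2 (chr14:52567198-52568051) held 0.0867% and 0.0125% and then 1.23% and 0.393%, a change of 3.92 (adjusted p = 0.341 by limma, 3.83e-05 with the block). The smallest share above 0 in the 24 h replicate 2 table was 0.00402%, so the lowest of these values rest on few steps of that table. Trav3-1 (chr14:52580665-52581213) held 0.192% and 0.649% and then 1.29% and 1.67%, with the larger replicate 1 change (2.68 against 1.35) and a mean change of 2.02 that was 1.17 without 24 h replicate 1 (adjusted p = 0.534 by limma, 0.00391 with the block). Trav12d-2, Trav4d-4 and Trav6d-7, all in the duplicated part of the array, had log2 changes of 0.95, 1.23 and 0.85, with adjusted p of 0.534, 0.408 and 0.543 by limma and 0.0161, 0.00274 and 0.0161 with the block. Without 48 h replicate 1, Trav12d-2 was at 0.50 and Trav6d-7 at 0.41, and Trav6d-7 was at 1.29 without 48 h replicate 2. The 34 segments with the suffix d, the duplicated copies, together held 21.1% and 20.6% at 24 h and 34.9% and 32.3% at 48 h. Their gain in replicate 2 was 11.7 points, of which 5.62 were in Trav15d-2-dv6d-2. Of these 34, 0 were called without the block, and 18 rose and none fell with it, beside 33.3% that rose and 16% that fell over all 81. All 34 lie in the distal or central zone, where 15 of 28 and 12 of 26 segments rose with the block and none fell. Their share was thus near that of their zones. Reads of near-identical copies may be split between them.

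Among the proximal segments, Trav14-3 (chr14:53763173-53763694) held 3.74% and 10.6% at 24 h and 1.57% and 3.49% at 48 h. It was the most used Trav in the 24 h replicate 2 library, and within each replicate number it was lower at 48 h, by 1.25 and 1.60 on the log2 scale (adjusted p = 0.534 by limma, 0.00274 with the block). The change over both, -1.42, was -0.67 without 24 h replicate 2, -0.85 without 48 h replicate 1 and -2.18 without 24 h replicate 1. Trav3-4 (chr14:53776956-53777576) held 2.27% and 4.52% and then 0.857% and 1.2%, with a log2 change of -1.65 (adjusted p = 0.405 by limma, 0.00235 with the block). Trav19 (chr14:53845234-53845827) held 2.17% and 1.07% and then 0.837% and 0.239%, a change of -1.74 (adjusted p = 0.534 by limma, 0.00235 with the block) that was -0.85 without 48 h replicate 2 and -2.62 without 48 h replicate 1. All 5 segments at the proximal end (Trav16, Trav17, Trav19, Trav20 and Trav21-dv12) fell with the block, beside 16% over all 81, with a median of -1.18, and 0 of the 5 were called without it. The log2 change was -1.18 for Trav17 and -0.98 for Trav16 (adjusted p = 0.405 and 0.534 by limma, 0.0031 and 0.0161 with the block). Trav21-dv12, the segment nearest the Traj array, held 3.62% and 1.48% and then 1.79% and 0.804%, so its groups overlapped while each replicate number was lower at 48 h (log2 change -0.94, adjusted p = 0.689 by limma, 0.00699 with the block). That change was -0.30 without 24 h replicate 1, -0.37 without 48 h replicate 2, -1.59 without 24 h replicate 2 and -1.51 without 48 h replicate 1. Trav4-4-dv10 and Trav3-3, from farther upstream in the same zone, had log2 changes of -1.08 and -0.82 (adjusted p = 0.534 and 0.642 by limma, 0.00904 and 0.0123 with the block). Trav3-3 was at -0.48 without 24 h replicate 1, -0.36 without 48 h replicate 2 and -1.27 without 48 h replicate 1.

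The move along the Traj array was seen within single Trav segments. Of the 81 Trav segments, 79 had a lower mean partner Traj number at 48 h in both replicate numbers, and the groups did not overlap for 76. The exceptions were Trav2, whose mean partner went from 28.6 to 26.1 in replicate 1 and from 21.1 to 27 in replicate 2, and Trav8-2, with 44.4 to 41.5 and 43.9 to 46.4. Trav2 held only 0.0125% in 24 h replicate 2, where the smallest share above 0 was 0.00402%, so the value of 21.1 rests on few steps. The same limit holds for Trav6-1, Trav11d, Trav1 and Trav7-2, which are among the 79. They held 0.0165%, 0.0167%, 0.0208% and 0.025% in that library. When the change of the mean Traj number was split into a part within Trav segments and a part from the shift in Trav usage, the first was -7.88 in replicate 1 and -7.44 in replicate 2. These make up 79.8% of the total in both, and the shift in Trav usage gave -1.99 and -1.88.

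The size of the move differed by Trav zone. At 24 h the mean partner Traj number was much the same in the 3 zones, at 41.7 and 43 for distal, 39.5 and 41.4 for central and 42.7 and 43.5 for proximal segments. At 48 h it was 28.5 and 30.2, 29.1 and 30.1, and 37.1 and 37.3. The median change of single segments was -12.3 and -10.2 in the distal, -10.1 and -11.1 in the central and -4.15 and -4.8 in the proximal zone, in replicates 1 and 2. The usage-weighted correlation of Trav rank with Traj number, over pairs within 1 library, was 0.116 and 0.0893 at 24 h and 0.271 and 0.26 at 48 h. Trav12d-2 had among its partners a mean Traj number of 42.6 and 45.6 at 24 h and 26 and 29.8 at 48 h. Trav14-3 had 5' partners at both times, with 44.3 and 45.2 and then 42.1 and 44.5. Trav1 already had low partner numbers at 24 h, 29.8 and 30.8, and 26.7 and 23.4 at 48 h. It held only 0.0208% in 24 h replicate 2. The segments next to Trav1 were low at 24 h in replicate 1 too, with 28.6 for Trav2, 30.8 for Trav3-1 and 32.1 for Trav6-1. In replicate 2 they had 21.1, 38.5 and 42.5. Trav6-1 held only 0.0165% in 24 h replicate 2, so its value of 42.5 rests on few steps, as does that of Trav2.

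**Figure D4:**
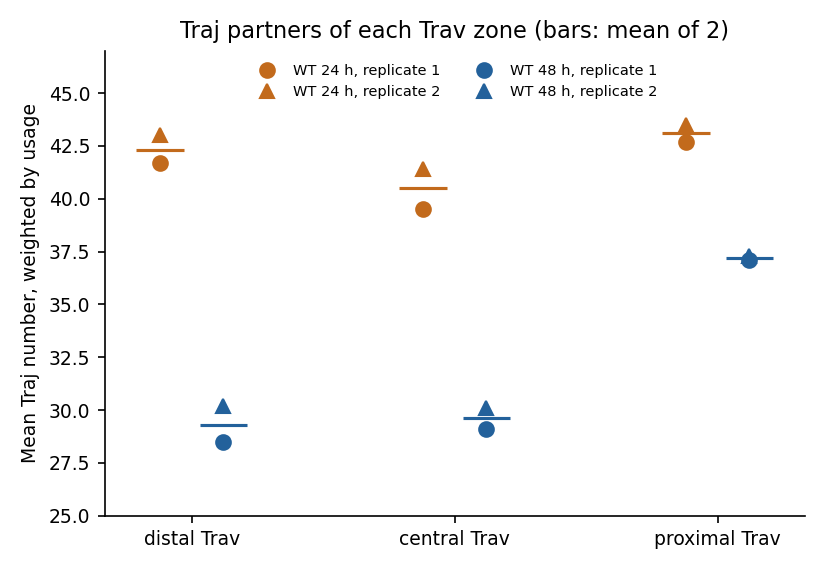
Usage-weighted mean Traj number of the partners of distal, central and proximal Trav segments in each WT library (circles, replicate 1; triangles, replicate 2), with a bar at the mean of 2. The 24 h values lie between 39.5 and 43.5 in all zones, and the 48 h values lie between 28.5 and 30.2 for distal and central but at 37.1 and 37.3 for proximal segments. The vertical axis does not start at 0.

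Joint shares of zones and blocks show where the repertoire was lost and gained. Proximal Trav joined to Traj52 to Traj45 was the largest of the 21 combinations at 24 h, with 17.7% and 21.8%, and held 7.96% and 11% at 48 h. Proximal Trav joined to Traj58 to Traj53 went from 12.3% and 13.7% to 5.45% and 6.9%. The gains were spread over the upstream zones and the 3' blocks. Central Trav joined to Traj21 to Traj12 went from 1.71% and 0.996% to 7.3% and 6.28%, and distal Trav with the same block from 0.843% and 0.488% to 6.19% and 4.02%. Distal Trav joined to Traj11 to Traj2, the joins across the longest distance, held 0.293% and 0.314% at 24 h and 3.33% and 1.4% at 48 h. Proximal Trav joined to the same 3' block went from 1.04% and 1.03% to 2.36% and 3.06%. The block from Traj38 to Traj31 moved in opposite ways by zone. With distal Trav it went from 3.13% and 2.43% to 5.69% and 4.44%, and with central Trav from 6.03% and 4.29% to 7.81% in both. With proximal Trav it went from 11.2% and 11.9% to 7.48% and 11.2%.

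**Figure D5:**
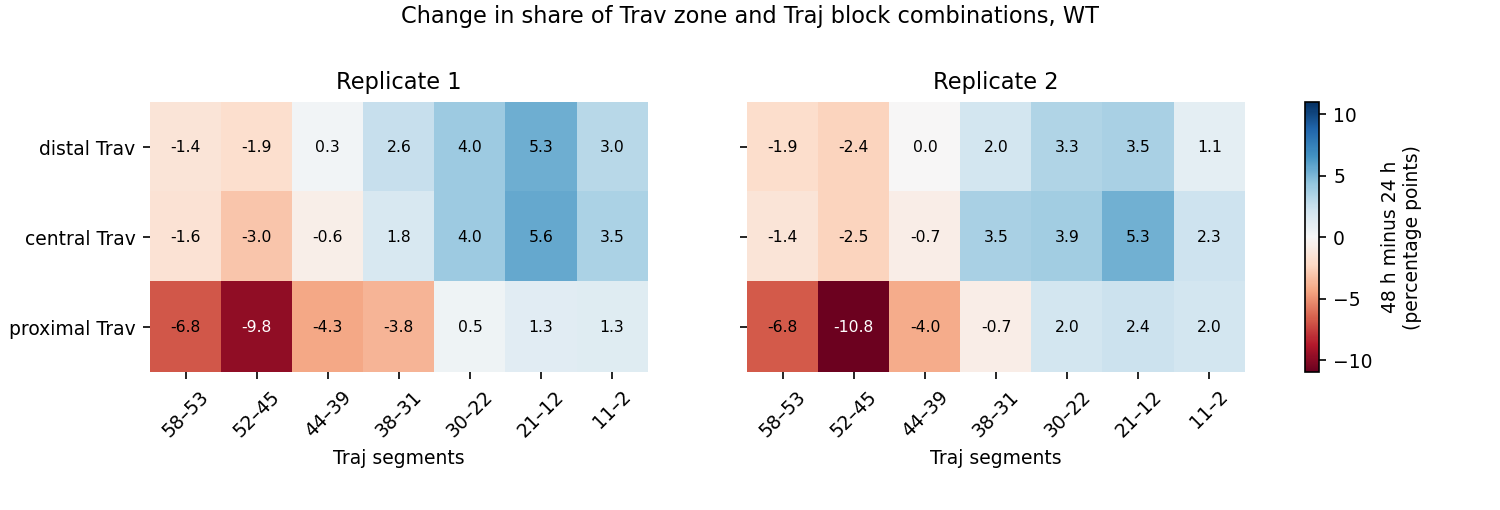
Difference in share (percentage points, 48 h minus 24 h) for each of 3 Trav zones (rows) joined to each of 7 Traj blocks (columns), for replicate 1 at left and replicate 2 at right. Proximal Trav with Traj52 to Traj45 lost most (-9.77 and -10.8), and central Trav with Traj21 to Traj12 gained most (5.6 and 5.28).

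No single pair of the 3483 passed the threshold by limma, with (0%) or without (0%) the replicate block. Of these pairs, 568 (16.3%) had an unadjusted p under 0.05 by limma without the block, and 922 with it. A fit that also used the 4 steady-state libraries called 206 higher and 28 lower of 3397 pairs. Groups did not overlap for 780 higher (22.4%) and 523 lower (15%) pairs, together not far above the probability of 0.333 under random order. Of the 196 distal pairs with Traj21 to Traj12, 119 were higher (60.7%) and none lower. Of the 162 proximal pairs with Traj52 to Traj45, 96 were lower (59.3%) and none higher. Among the pairs whose groups did not overlap, the 5 with the largest loss in points joined Trav14-3 or Trav3-4. Trav14-3 with Traj53 held 0.234% and 0.706% at 24 h and 0.0823% and 0.0957% at 48 h, and Trav3-4 with Traj52 held 0.163% and 0.43% and then 0.0501% and 0.0573%. Trav14-3 with Traj57 and with Traj45 and Trav3-4 with Traj56 were lower too, by 0.315, 0.244 and 0.279 points in the mean.

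Gains in points were also ranked only among pairs whose groups did not overlap. Of the 5 largest, Trav12d-2 with Traj18 held 0.00944% and 0 at 24 h and 0.0964% and 0.124% at 48 h. Trav7-4 with Traj18 held 0.0446% and 0.0165% and then 0.0975% and 0.191%. The other 3, Trav15d-2-dv6d-2 with Traj15, Traj17 and Traj12, stood high in 1 library only, 48 h replicate 2, at 0.46%, 0.373% and 0.344%, against 0.0169%, 0.0232% and 0.02% in 48 h replicate 1. They belong to the Trav15 rows, which were high in both replicate 2 libraries.

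Chains of other T cells were sought with their defining joins. Trav11 with Traj18, the invariant NKT chain, held 0.0189% and 0 at 24 h and then 0.0449% and 0.0287%. The copy Trav11d with Traj18 was at 0 in both replicate 2 libraries and at 0.000858% and 0.00449% in replicate 1. Trav1 with Traj33, the MAIT cell chain, held 0.00429% and 0 and then 0.0377% and 0.0192%. A 0 in the tables with coarser steps can hold a share under 0.00402% at 24 h or 0.0095% at 48 h. Trav11 over all its partners held 0.476% and 0.0987% and then 0.609% and 0.115%, so it differed more between replicate numbers than between times (log2 change 0.27, adjusted p = 0.983 by limma, -0.05 on the centred scale and -0.88 to 1.43 without any 1 library). The 10 dv-named Trav segments, which can also join in Tcrd in gamma-delta cells, together held 16.3% and 23.7% at 24 h and 12.2% and 33.7% at 48 h. Without the Trav15 rows they held 13.9% and 11.5% and then 9.91% and 6.97%. The part of such cells in the results was not tested.

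KO cells over the same interval served to ask whether the WT move had its own shape. Their mean Traj number was 45.6 and 47.1 at 24 h and 38.5 in both libraries at 48 h, a change of -7.11 and -8.61 against -9.87 and -9.32 in WT. Without the block, limma called no Traj segment whose change differed between genotypes (0%, with 14 of 43, or 32.6%, at an unadjusted p under 0.05). With the block, 16 of 43 differed (37.2%), 5 with a higher (11.6%) and 11 with a lower change in WT (25.6%). The 11 all lay between Traj44 and Traj27, and 4 of the 5 between Traj11 and Traj2. Traj39 held 3.07% and 3.04% and then 2.65% and 2.59% in WT, a log2 change of -0.22 against 0.76 in KO (difference -0.97, SE 0.22, adjusted p = 0.0348 with the block, limma). Traj11 changed by 2.80 in WT and by 1.71 in KO (difference 1.10, adjusted p = 0.0348 with the block, limma). The block from Traj44 to Traj39 was lower at 48 h in WT, by 4.6 and 4.8 points, and higher in KO, by 3.83 and 5.74 points. For Trav segments, no change differed between genotypes with or without the block (0% in both, with 11 and 0 of 81 at an unadjusted p under 0.05, or 13.6% and 0%, limma).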

How the data were processed

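The 4 WT libraries of 24 h and 48 h were compared, 2 per time, grouped by their titles. Nothing in the labels ties a library to its own mouse, so p-values measure only how far these libraries differ, and that spread may be technical. The values are fractions of the repertoire per pair of segments, as deposited by the authors. For the aligner, genome build and unit counted, nothing is given in the sources used here.

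Each table was divided by its total over the 81 Trav rows present in all 4 tables, which held 98.6% to 99.96% of it, and summed to shares per Traj, Trav, block and zone. limma 3.58.1 in R 4.3.3 was fitted to log2(percent + 0.01) with 1 mean per group over the 8 libraries of WT and KO at 24 h and 48 h (4 residual degrees of freedom), and Benjamini-Hochberg adjustment at 0.05 ran over 43 Traj, 81 Trav or 3483 pairs. Fold changes are on this scale, which understates the change of low shares. 1 Trav row was missing from each of 2 KO tables, and there the fit drops that library. The fitting step was tested on simulated pairs with independent noise. These had no replicate effect and no coarse steps, so that test says nothing about either. Same-numbered libraries deviated together in every pair of groups (r of 0.232 to 0.66 for Traj, 0.88 to 0.931 for Trav and 0.497 to 0.652 for pairs). The labels do not say what a replicate number marks. The replicate 2 tables of 24 h and 48 h also differ in their totals and pairs at 0, so this does not show that samples were paired. A fit with the replicate number as a block was the main alternative, and its calls assume an effect of that number shared by the groups.

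Of the 81 Trav symbols, 79 matched GENCODE M21 on GRCm38, and Trav9-3 and Trav13-5 were placed by row order. That reference is C57BL/6J, while the labels place a strain 129 allele at Tcra-Tcrd. Named were the 8 Traj with the largest rise and the 8 with the largest fall among those called and moved alike in both replicate numbers, with Traj58, Traj2, Traj18 and Traj33. For Trav (6 each way) and pairs (5 each way), of which none was called, those with the largest difference in points whose groups did not overlap were named, with Trav1, Trav2, Trav17, Trav21-dv12, Trav11 and the chains of NKT and MAIT cells. For changes that differed between WT and KO, the rule asked for a call without the block and named none. Traj39 and Traj11, and other segments named beside these, were chosen after their values were seen. The libraries, lists and rules were chosen with earlier results of these data known. Other alternatives were pseudocounts of 0.1 and 0.001, a filter on low shares, 12 libraries, the 4 WT libraries alone, a centred scale, division by the total of all rows, leaving out each WT library, and, added after seeing the data, leaving out the Trav15 rows.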

Additional observations from a re-analysis of the deposited data

Results flagged for a closer look

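With the replicate block, 16 Traj segments had a change from 24 h to 48 h that differed between WT and KO cells by a test of the difference itself (limma, adjusted p of 0.0348 to 0.0437), and without the block none of the 43 did, with 14 at an unadjusted p under 0.05. The values below are the log2 change in WT minus that in KO. At the 5' end, Traj58 differed by 0.89. In the middle of the array, the change in WT was lower for Traj44 (-0.88), Traj43 (-0.85), Traj42 (-0.89), Traj40 (-0.72), Traj39 (-0.97), Traj38 (-1.03), Traj35 (-0.67), Traj34 (-0.65), Traj31 (-0.84), Traj30 (-0.84) and Traj27 (-0.78). At the 3' end, it was higher for Traj11 (1.10), Traj9 (0.69), Traj7 (0.99) and Traj2 (0.82). Of the middle segments, Traj43, Traj42, Traj40 and Traj39 were lower at 48 h in both WT replicate numbers and higher in both KO replicate numbers, as was Traj37, whose difference was not called.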

How the results depend on the processing

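The count of 31 Traj calls was 33 with the replicate block and 27 to 32 without any 1 library. No Traj named by the rule lost its call under any alternative run. Among the others, Traj30, Traj28 and Traj27 lost theirs on the centred scale (adjusted p = 0.526, 0.2 and 0.0737, limma). The count of Trav calls, 0, became 40 with the block and 1 each with 12 libraries, on the centred scale and without the Trav15 rows, and it stayed 0 without any 1 library. The count of pair calls, 0, became 234 with 12 libraries and was 0 without any 1 library. The count of Traj segments whose change differed between WT and KO, 0, became 5 with a pseudocount of 0.1, 13 with 12 libraries and 16 with the block. The block changed no other count of calls by over 1.5 times. At an unadjusted p under 0.05 (limma), it moved pairs from 568 to 922 and Trav segments from 8 to 45. Traj segments stayed at 33. For changes that differed between WT and KO, it moved Traj segments from 14 to 24 and Trav segments from 0 to 11. On the centred scale Traj33 (-0.35) and Trav11 (-0.05) turned negative. Trav11 ranged from -0.88 to 1.43 and Trav11d with Traj18 from -0.06 to 0.48 without any 1 library. Over pairs above 0 in all 4 tables only, the change of the mean Traj number was -7.1, and those of Traj58 to Traj53, Traj52 to Traj45 and Traj11 to Traj2 were -8.43, -13.1 and 2.92 points. This restriction keeps fewer pairs by its construction. Without any 1 library, the mean Traj number changed by -10.5 to -8.69, the mean Trav rank by -11.4 to -6.8, Traj58 to Traj53 by -10.8 to -9.19 points, Traj52 to Traj45 by -16.7 to -13.7, Traj11 to Traj2 by 5.36 to 7.92, distal Trav by 4.89 to 12.6 and proximal Trav by -25 to -12.4. The cause of these movements was not tested. With 1 library left at a time, its spread is assumed to be that of the other groups. Depth is unknown, and the coarser steps of the replicate 2 tables limit what can be said of single pairs.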

Other observations

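Summed by family, with copies of suffix d counted apart, 34 Trav families were listed in the 4 tables. Of the 14 families with suffix d, 12 were higher at 48 h in both replicate numbers and none was lower in both, and groups did not overlap for 7. Of the 20 families without suffix, 5 were higher and 12 lower in both. The Trav14 family, 3 segments without suffix, held 9.73% and 15.9% at 24 h and 6.1% and 8.05% at 48 h, and its 3 copies in Trav14d held 2.23% and 2.96% and then 3.32% and 3.29%. The Trav3 family held 6.51% and 7.72% and then 4.65% and 4.2%, while the single copy Trav3d-3 held 0.758% and 0.646% and then 1.88% and 0.882%. For Trav4 and Trav4d the values were 8.82% and 7.6% and then 6.6% and 6.13%, and 1.54% and 1.72% and then 2.87% and 4.01%. All segments with suffix d lie in the distal or central zone, while Trav14-1, Trav14-2, Trav14-3, Trav3-3, Trav3-4, Trav4-3 and Trav4-4-dv10 are proximal. Suffix and position were not separated. Near-identical copies may share reads, and the differences between families were not tested.

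The uneven profile along the Traj array was shared by all 4 libraries. Of the 41 segments with a neighbour on each side, 13 were used less than both neighbours in every library: Traj53, Traj50, Traj47, Traj44, Traj38, Traj35, Traj33, Traj28, Traj24, Traj16, Traj13, Traj11 and Traj5. Of the 4 segments in which the F-G-X-G motif was not found in frame, Traj44, Traj38 and Traj33 are among the 13 and Traj7 is not, and no relation was tested.

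The 48 h replicate 1 table lists Trav18 (0.0204% of its total) and Trav7-6 (0.0231%), which the other 3 WT tables of 24 h and 48 h do not list, and does not list Trav13d-2 and Trav5-1. Those held 0.222% and 0.331% at 24 h in replicate 1, 0.263% and 0.111% at 24 h in replicate 2, and 0.689% and 0.708% at 48 h in replicate 2. None of these 4 entered the comparisons.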
